A study of Rattus norvegicus with 21 samples.

Results

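Th, Ddc and Dbh, the 3 genes for the enzymes that turn tyrosine into noradrenaline, were followed through 21 messenger RNA libraries of PC12 cells. They were chosen by Ensembl rat identifier, as ENSRNOG00000020410.5, ENSRNOG00000004327.8 and ENSRNOG00000006641.8, and all 3 were found among the 32883 genes of the count tables. The tables carry no gene names, so each name is that of the list that defined the set, and chromosomal positions of the counted genes were not used here. PC12 is a cell line from a rat adrenal pheochromocytoma, a tumour of catecholamine-making chromaffin cells, and the labels call it neuronal. The cells were given vehicle or an extract of Jakyakgamcho-tang (JGT), a herbal formula of peony and licorice root, made with water or with ethanol. Both extracts were used at 4, 20 and 100 µg/mL, called the low, medium and high dose here. The labels describe the vehicle group also as untreated, and they give no treatment time. Each of the 7 groups held 3 libraries, and nothing in the labels says that these came from separate cultures, so p-values measure the spread between libraries, which may be technical.

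Catecholamines are made from tyrosine in a fixed order. Tyrosine hydroxylase (Th) makes L-DOPA, and this step limits the rate of the pathway. Aromatic L-amino acid decarboxylase (Ddc) turns L-DOPA into dopamine and also makes serotonin from its precursor. Dopamine beta-hydroxylase (Dbh), which sits inside the secretory vesicles, turns dopamine into noradrenaline. Chromaffin cells use all of these enzymes, and PC12 cells are known for storing and releasing dopamine and noradrenaline.

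The libraries held 8344416 to 28420922 expected counts each. A set of 3 ethanol libraries stood apart in an earlier look at these data, namely the low-dose replicate 1 and the medium-dose replicates 2 and 3. The typical gene lay 0.207 to 0.34 log2 units from the median library in them (median of the absolute deviations), against at most 0.158 in the other 18, and their median fragment lengths were 178.7 to 202.5 bases, against 205.3 to 240.8. Results are therefore given with all 21 libraries and with the other 18, which leave 1 medium-dose ethanol library.

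The 3 enzymes stood at very different levels. Th was among the most abundant messages in every library, ranking between 9 and 19 by TPM (a level corrected for gene length and scaled to a common total), with a deposited TPM of 3437 to 4651 and a median of 4220. It took 0.397 to 0.529% of all counts in a library. Ddc had a deposited TPM of 36.3 to 74.9 with a median of 49.4, and ranked between 2532 and 3917. Per effective kilobase, the Th level was 62.1 to 118 times the Ddc level in the same library, with a median of 82.7. Dbh was at the edge of detection, with a deposited TPM of 0 to 0.26 and a median of 0.11.

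The set was listed as the enzymes that define this catecholamine-making cell. The level of the identifier listed as Dbh went against that description, and whether that identifier is Dbh could not be checked in the tables used here. Over all 21 libraries, 84 counts fell on Dbh among 443240156, or 0.19 CPM (the usual count per library total, here with no TMM scaling), with an exact 95% Poisson interval of 0.151 to 0.235 that covers counting error only. The counts per library were 0 to 9. For comparison, 12387 of the 20051 genes with any count had a mean TPM of at least 1, and Dbh ranked 14791 by mean TPM. All counts of the 3 genes were whole in all 21 libraries, so no fractional counts, which RSEM gives to reads that match several genes, were seen for them.

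Because the 3 genes differ so much in level in the same cells, the 200 bases before a start listed by RefSeq (GRCr8 assembly) are shown, with matches to 5 searched motifs in capitals. The 3 symbols were all found in the promoter table, Ddc with 3 starts, of which the most upstream is shown. Which of the 3 Ddc starts these cells use was not tested, so the window shown may not be the one in use. The Th window lies at chr1:207508219-207508418 (minus strand), the Ddc window at chr14:90682784-90682983 (minus strand) and the Dbh window at chr3:30886128-30886327 (plus strand). The build of the count tables is not given in the sources used here, so the windows were taken by symbol and not by coordinate.
Th: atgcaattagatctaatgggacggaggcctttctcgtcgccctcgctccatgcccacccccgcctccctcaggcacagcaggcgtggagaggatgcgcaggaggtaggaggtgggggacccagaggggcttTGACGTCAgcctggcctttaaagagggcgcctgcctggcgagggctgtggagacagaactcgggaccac
Ddc: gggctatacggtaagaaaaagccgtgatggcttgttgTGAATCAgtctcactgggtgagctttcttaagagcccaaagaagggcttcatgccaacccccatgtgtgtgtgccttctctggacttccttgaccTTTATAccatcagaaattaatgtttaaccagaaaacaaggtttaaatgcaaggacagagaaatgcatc
Dbh: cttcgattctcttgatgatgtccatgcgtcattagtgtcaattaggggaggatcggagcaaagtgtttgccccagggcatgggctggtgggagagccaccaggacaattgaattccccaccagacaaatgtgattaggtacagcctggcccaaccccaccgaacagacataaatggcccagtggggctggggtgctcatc

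The motifs were searched on both strands, and no matches overlapped. TGACGTCA, the cyclic AMP response element, was found in the Th window at bases -69 to -62 counted from the listed start, and 1.47% of 33349 rat windows of the same length held it. TGANTCA, the AP-1 element, was found in the Ddc window at -163 to -157, and 4.97% of windows held it. TATAAA, the TATA box, was found in the Ddc window on the reverse strand at -68 to -63, and 10.4% of windows held it. GGGCGG, the GC box (28.6% of windows), and the paired homeodomain site (0.291%), were found in none of the 3 windows, and the Dbh window held none of the 5. The other 2 Ddc windows held none of the 5 either. These are matches of letters and say nothing about binding in these cells.

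Th, the enzyme of the rate-limiting step, did not pass against vehicle in any extract group with all 21 libraries. In CPM with TMM scaling, the vehicle libraries stood at 4897, 4993 and 5117. With water extract, the low-dose libraries stood at 5031, 4865 and 5310, the medium-dose libraries at 5281, 4990 and 5350, and the high-dose libraries at 3943, 4617 and 4943. With ethanol extract, the low-dose libraries stood at 4420, 4912 and 5221, the medium-dose libraries at 5347, 3942 and 4421, and the high-dose libraries at 4879, 5151 and 4796.

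The 3 libraries that stood apart held the 3 lowest Th values of the 9 ethanol libraries, and replicate 1 of the high-dose water group was the low one among the water libraries. On the TPM scale the 3 libraries apart were not low for Th, at 4233, 4443 and 4651. The high-dose water libraries, at 3437, 3839 and 4088, all lay below the vehicle libraries there (4147 to 4220). How many genes do so in TPM was not counted. The 7 group means of Th ran from 5207 ± 191 CPM (medium-dose water; SD, n = 3) down to 4501 ± 510 CPM (high-dose water; SD, n = 3), and no neighbours in that order differed beyond their spread. In deposited TPM the high-dose water mean, 3788 ± 328 (SD, n = 3), lay below the next mean by more than the spread, although their libraries overlapped.

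None of the 6 extract groups differed from vehicle in Th by edgeR's quasi-likelihood test. The log2 fold change was 0.02 ± 0.098, 0.06 ± 0.098 and -0.15 ± 0.098 (SE) at the low, medium and high dose of water extract, with edgeR adjusted p of 0.989, 1 and 0.927. It was -0.04 ± 0.098, -0.13 ± 0.098 and -0.018 ± 0.098 (SE) for the same doses of ethanol extract, with edgeR adjusted p of 0.865, 0.362 and 0.959. Leaving out the medium-dose ethanol replicate 1, which left 2 of the libraries that stood apart, gave a medium-dose change of -0.26 (edgeR adjusted p = 0.0189). With the 18 libraries the medium-dose change had the opposite sign, at 0.10 ± 0.091 (SE; edgeR adjusted p = 0.462). Its direction thus rested on the 2 medium-dose libraries apart.

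**Figure D1:**
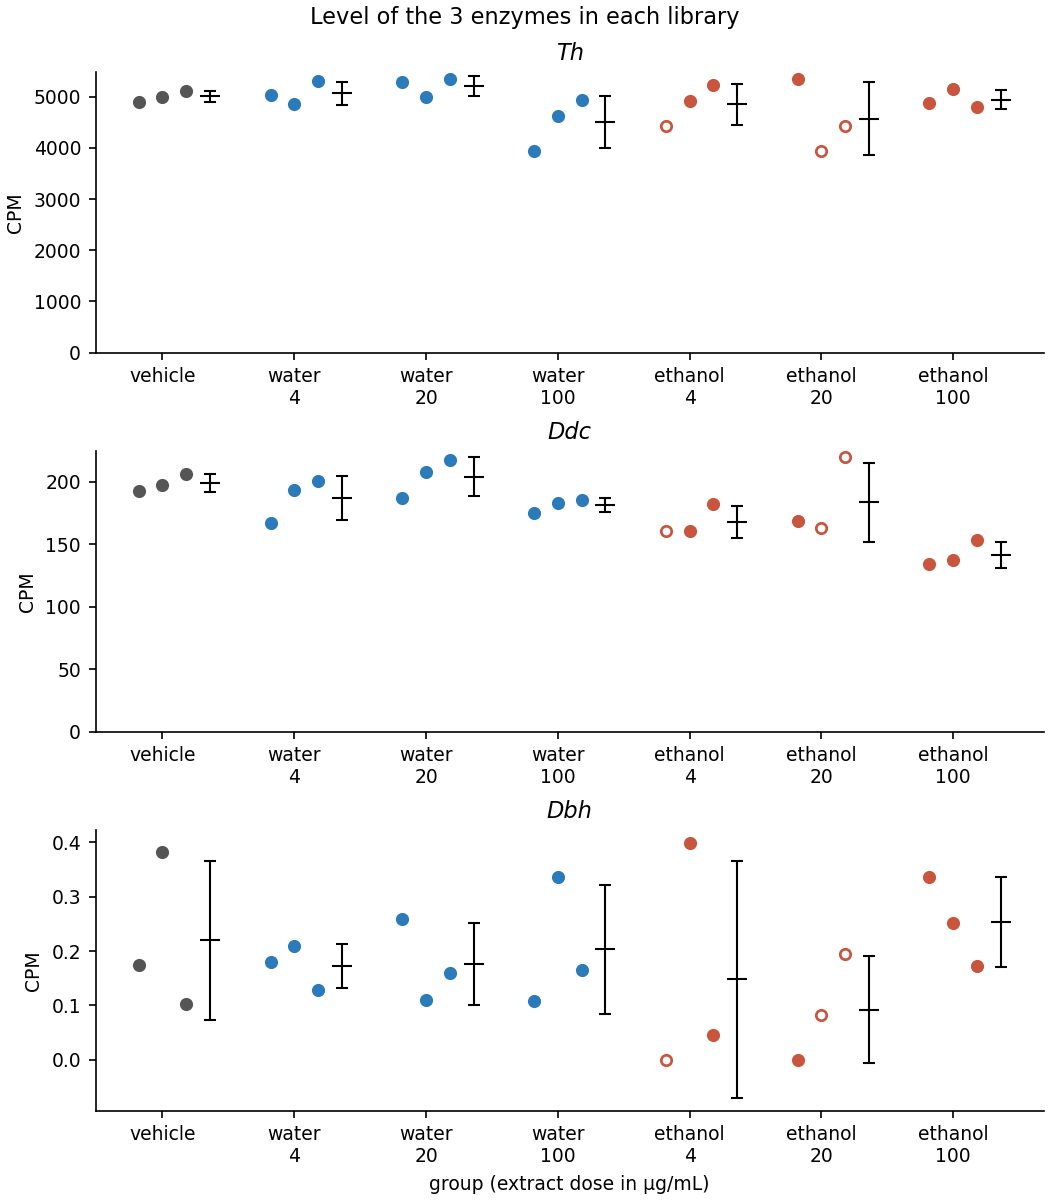
Level of Th, Ddc and Dbh in CPM (vertical axes from 0 for Th and Ddc) in each of 21 libraries by group, with doses in µg/mL. Points are libraries, open points are the 3 libraries that stood apart, and bars are the group mean ± SD. The 3 high-dose ethanol libraries had the 3 lowest Ddc values, while Dbh stayed under 0.4 CPM.

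Ddc, the enzyme that makes dopamine, was lower with the high dose of ethanol extract. The vehicle libraries stood at 193, 198 and 206 CPM and the high-dose ethanol libraries at 134, 137 and 153 CPM. Every high-dose ethanol library lay below every vehicle library, and also below each of the other 18 libraries, the lowest of which was at 160 CPM. Of the 13550 genes tested, 19.5% had the high-dose ethanol libraries below every vehicle library, and 0.546% had them below all other libraries. On the TPM scale the high-dose ethanol libraries were again the lowest, at 36.3 to 40.5 against 42.4 or more in the others.

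The mean of Ddc went from 199 ± 6.9 to 141 ± 10.3 CPM (SD, n = 3 each), a change of -28.9%. The log2 fold change was -0.49 ± 0.102 (SE), with an edgeR adjusted p of 0.0096, and Ddc was the 1 of 2 tested members that passed in a comparison where 3.92% of all genes passed. With the 18 libraries the change was again -0.49, with a smaller error of 0.071 (SE) and an edgeR adjusted p of 5.8e-05, where 22.7% of genes passed. The call with 21 libraries was lost without vehicle replicate 3, high-dose ethanol replicate 1 or high-dose ethanol replicate 2 (edgeR adjusted p = 0.0565, 0.0621 and 0.0603), with changes of -0.47, -0.46 and -0.47. With 18 libraries it remained when any 1 of the 6 vehicle and high-dose ethanol libraries was also left out (edgeR adjusted p at most 0.00075). In bulk RNA, fewer cells that express Ddc and less Ddc RNA per cell cannot be told apart.

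At the lower doses of ethanol extract Ddc did not pass with all 21 libraries. The low-dose libraries stood at 161, 160 and 182 CPM, all below the vehicle libraries, which held for 15.9% of all genes tested. The log2 fold change was -0.25 ± 0.102 (SE), with an edgeR adjusted p of 0.211. It did not pass with the 18 libraries either, at -0.22 ± 0.079 (SE; edgeR adjusted p = 0.0907). The low-dose change did pass in a fit of the 18 libraries that also held the library number, as given below. The medium-dose libraries stood at 168, 163 and 220 CPM, so that 1 of them, a library that stood apart, was above all vehicle libraries. In deposited TPM they stood at 42.4, 59 and 74.9, against 52.6 to 53.9 in vehicle. On that scale the 2 that stood apart were above all vehicle libraries. The medium-dose change was -0.12 ± 0.102 (SE; edgeR adjusted p = 0.444), and -0.24 ± 0.102 (SE; edgeR adjusted p = 0.0988) with the 18 libraries, where it rests on 1 library. In these comparisons 2.59% and 13.3% of all genes passed with 21 libraries, and 9.7% and 24.9% with 18.

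With water extract, Ddc did not differ from vehicle by this test at any dose. The low-dose libraries stood at 167, 193 and 201 CPM, the medium-dose libraries at 187, 208 and 218 CPM and the high-dose libraries at 175, 183 and 186 CPM. Of the water groups, only the high-dose libraries all lay below the vehicle libraries, which held for 11.6% of all genes tested. The log2 changes were -0.09 ± 0.102, 0.037 ± 0.102 and -0.14 ± 0.102 (SE), with edgeR adjusted p of 0.879, 1 and 0.975. These comparisons passed 0.369%, 0.00738% and 0.0664% of all genes.

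The order of the Ddc group means was medium-dose water (204 ± 15.7 CPM), vehicle (199 ± 6.9), low-dose water (187 ± 17.9), medium-dose ethanol (184 ± 31.5), high-dose water (181 ± 5.43), low-dose ethanol (168 ± 12.6) and high-dose ethanol (141 ± 10.3; SD, n = 3 each). Neighbours among the first 5 did not differ beyond their spread. The low-dose ethanol mean lay below the high-dose water mean by more than the spread, although their libraries overlapped. Only the last step, from low-dose to high-dose ethanol, was larger than the spread with no overlap between the libraries. In deposited TPM the last step was the same, but the medium-dose ethanol mean was the highest, at 58.8 ± 16.3 (SD, n = 3). There the low-dose ethanol mean lay below the high-dose water mean by less than the spread (0.813 against 1.79). The low-dose water mean lay below the vehicle mean by more than the spread in TPM (3.12 against 2.84), although their libraries overlapped.

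**Figure D2:**
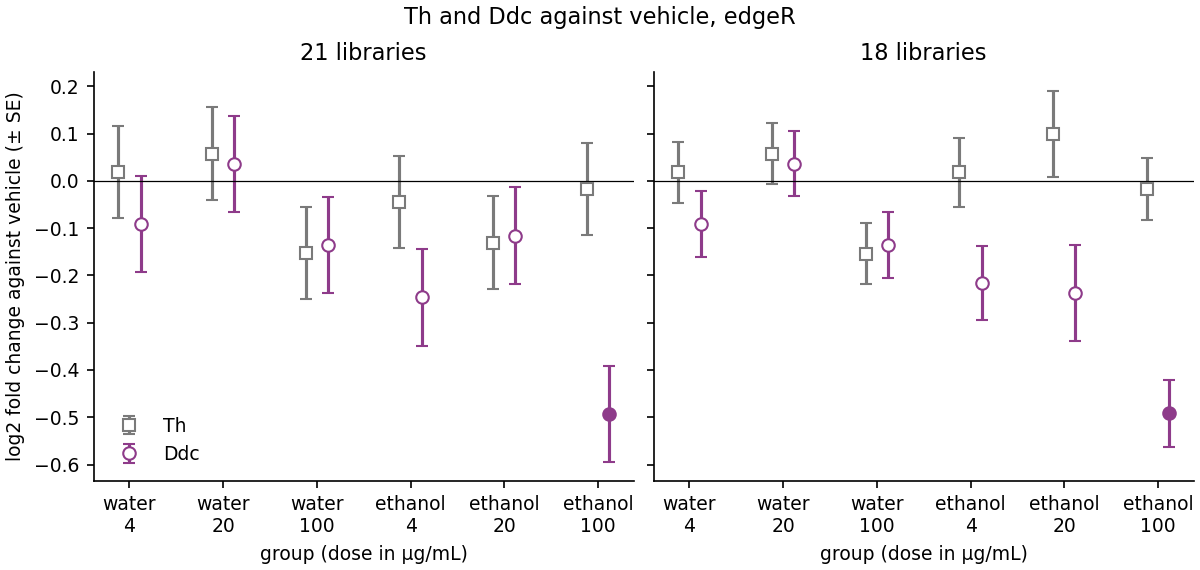
Log2 fold change of Th (squares) and Ddc (circles) against vehicle for each extract group (dose in µg/mL), with 21 libraries on the left and 18 on the right. Bars are ± SE and filled symbols have an edgeR adjusted p under 0.05. Ddc at the high dose of ethanol extract, at -0.49 in both fits, is the filled symbol in each panel.

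The extracts were also compared directly with each other at each dose. At the high dose Ddc was lower with ethanol than with water extract by a log2 difference of -0.36 ± 0.102 (SE), with no overlap between 134 to 153 CPM and 175 to 186 CPM. Of all genes tested, 14.3% had the high-dose ethanol libraries below every high-dose water library. This did not pass with 21 libraries (edgeR adjusted p = 0.187), where 0.0443% of all genes passed. It passed with the 18 libraries, at -0.36 ± 0.071 (SE; edgeR adjusted p = 0.0038), where 11.3% of genes passed. It also passed there when any 1 of the 6 high-dose libraries was left out (edgeR adjusted p at most 0.0282). At the low and medium dose the Ddc differences were -0.16 ± 0.102 and -0.15 ± 0.102 (SE; edgeR adjusted p = 0.904 and 0.313), where 0.0221% and 7.34% of genes passed.

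Averaged over doses, Ddc was lower with ethanol extract by -0.22 ± 0.059 (SE; edgeR adjusted p = 0.0274, with 9.28% of genes passing). With the 18 libraries the difference was -0.25 ± 0.049 (SE), where the medium dose of ethanol extract rests on 1 library. Leaving out the libraries that stood apart lowers the mean Ddc level of the ethanol libraries from 164 to 156 CPM. The fit does not allow for that choice. The call with 21 libraries was lost when any 1 of 7 libraries was left out, namely high-dose water replicate 2, medium-dose water replicates 2 and 3, low-dose water replicates 2 and 3, and high-dose ethanol replicates 1 and 2, with edgeR adjusted p of 0.0515 to 0.0639. It was also lost with fragment length as a covariate (edgeR adjusted p = 0.12) and in a fit without the vehicle libraries (edgeR adjusted p = 0.0505). Th showed an averaged difference of -0.039 ± 0.056 (SE; edgeR adjusted p = 0.683), which became 0.060 ± 0.044 (SE; edgeR adjusted p = 0.369) with the 18 libraries. At the single doses the Th differences were -0.063 ± 0.098, -0.19 ± 0.098 and 0.13 ± 0.098 (SE) from low to high, with edgeR adjusted p of 0.952, 0.197 and 0.692. The medium-dose Th difference was -0.32 without medium-dose ethanol replicate 1 (edgeR adjusted p = 0.0053) and 0.042 with the 18 libraries, so it too rested on the libraries apart.

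Between the high and the low dose of the same extract, neither gene passed. Within the ethanol extract the Ddc difference was -0.25 ± 0.102 (SE; edgeR adjusted p = 0.954), and -0.28 ± 0.079 (SE; edgeR adjusted p = 0.166, with 0.596% of genes passing) with the 18 libraries. Its high-dose libraries all lay below the low-dose ones, which held for 6.41% of all genes tested. Within the water extract the Ddc difference was -0.045 ± 0.102 (SE; edgeR adjusted p = 1). For Th the differences were 0.027 ± 0.098 within the ethanol and -0.17 ± 0.098 (SE) within the water extract (edgeR adjusted p = 1 for each). Few genes passed at all here, at 0.00738% for ethanol and 0.0% for water. The difference between the 2 dose responses, added after the data were seen, was -0.20 ± 0.144 (SE) for Ddc and 0.20 ± 0.138 (SE) for Th, with an edgeR adjusted p of 1 for each, so it was not shown that the extracts differ in their dose response.

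The ratio of Ddc to Th within a library does not depend on how libraries are scaled. In vehicle there were 3.94, 3.96 and 4.04 Ddc counts per 100 Th counts. The high-dose ethanol libraries had 2.75, 2.66 and 3.19, which ranked 2, 1 and 4 from the lowest of the 21. The low-dose ethanol libraries had 3.64, 3.26 and 3.49, and the medium-dose ethanol libraries 3.15, 4.13 and 4.97. The 9 water libraries ran from 3.31 to 4.44 with a median of 3.96. All ethanol libraries other than the medium-dose replicates 2 and 3 thus lay below all vehicle libraries. Of the 9 water libraries, 4 also lay below all vehicle libraries and 3 lay above them. The vehicle ratios lay close together, with an SD of the log2 ratio of 0.018 against 0.127 in water, so lying below them is not particular to ethanol extract.

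Over all 9 ethanol and 9 water libraries, the log2 ratio differed by -0.18 (means of -4.87 and -4.69; SD 0.281 and 0.127), which did not pass an exact two-sided permutation test (p = 0.092, adjusted p = 0.828 over 9 tests). Over the 6 ethanol libraries that did not stand apart, it differed from water by -0.34 (exact permutation p = 0.0008, adjusted p = 0.0072), or a ratio 0.792 times as high. The 3 ethanol libraries left out had the 3 highest ratios of the 9, at 3.64, 4.13 and 4.97 Ddc counts per 100 Th counts. Leaving them out lowers the ethanol mean, and the p-values with 6 libraries do not allow for that choice. Against vehicle the differences were -0.22 with 9 ethanol libraries (exact permutation p = 0.245, adjusted p = 0.864) and -0.37 with 6 (exact permutation p = 0.0238, adjusted p = 0.107). For water against vehicle the difference was -0.037 (exact permutation p = 0.664, adjusted p = 0.864). The log2 ratios were taken from log2 CPM with a prior count of 2. The 6 comparisons of ratios with Dbh had an adjusted p of 0.864 each, and they rest on Dbh counts of 9 or fewer per library.

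**Figure D3:**
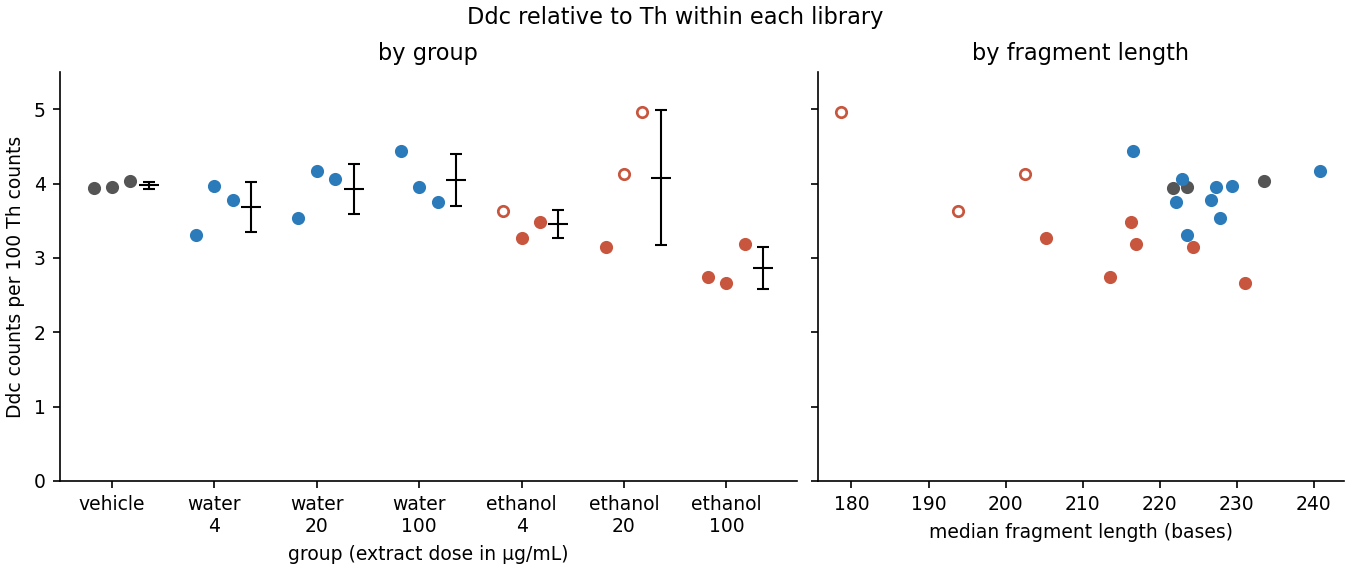
Ddc counts per 100 Th counts in each library, by group on the left (bars are mean ± SD, dose in µg/mL) and against the median fragment length of the library in bases on the right. Open points are the 3 libraries that stood apart, and colours are the same in both panels (grey vehicle, blue water, red ethanol). The ratio was 2.66 to 3.19 in the high-dose ethanol libraries and 3.94 to 4.04 in vehicle. The library with the shortest fragments had the highest ratio, 4.97, and the one with the longest fragments had 4.17.

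Fragment length differed between the libraries, and its correlation with these values was not computed. Ddc is the longer gene, at a weighted length of 5027 to 5075 bases against 1766 for Th. The libraries that stood apart had the 3 longest weighted lengths of Ddc, at 5063, 5061 and 5075 bases against at most 5053 in the others. The high-dose ethanol libraries had fragments of 213.6, 231.1 and 217 bases and the vehicle libraries 221.7, 223.5 and 233.5 bases. The high-dose ethanol library with the longest fragments had the lowest ratio, 2.66. The library with the longest fragments of all, medium-dose water replicate 2 at 240.8 bases, had a high ratio, 4.17. The 3 libraries that stood apart, with fragments of 193.8, 202.5 and 178.7 bases, had ratios of 3.64, 4.13 and 4.97. Whether fragment length bears on the ratio was not tested, and single libraries do not settle it. With fragment length as a covariate, the change of Ddc at the high dose of ethanol extract was -0.51 ± 0.099 (SE; edgeR adjusted p = 0.0046), and -0.47 ± 0.073 (SE; edgeR adjusted p = 0.00019) with the 18 libraries.

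Dbh, the enzyme that makes noradrenaline, was too rare for small differences between groups to be seen. Counts were 4, 9 and 2 in the vehicle libraries, 5, 6 and 3 at low-dose, 6, 3 and 4 at medium-dose and 2, 9 and 4 at high-dose water extract. They were 0, 7 and 1 at low-dose, 0, 1 and 3 at medium-dose and 6, 5 and 4 at high-dose ethanol extract. In CPM the libraries of every group overlapped with those of every other, and no neighbours in the order of the group means differed beyond their spread. The libraries with 0 counts allow a level of up to 0.36 CPM (low-dose ethanol replicate 1) and 0.2 CPM (medium-dose ethanol replicate 1), taking 3 counts as the limit and counting error only.

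Summed over libraries, Dbh had 15 counts in vehicle, 42 in the 9 water libraries and 27 in the 9 ethanol libraries, or 0.224, 0.186 and 0.179 CPM of the unscaled totals. The exact 95% Poisson intervals were 0.125 to 0.369, 0.134 to 0.252 and 0.118 to 0.26 CPM. Dbh did not pass the filter on low counts, so it was not among the 13550 genes tested. Without the filter, Dbh passed in none of the 6 comparisons with vehicle, with edgeR adjusted p of 0.459 to 1 and a high-dose ethanol change of 0.14 ± 0.672 (SE). No difference between groups was detected, and one that is small against these intervals could not be seen at this depth.

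Th and Ddc were not shown to vary together over libraries. Over the 18 libraries, Pearson's r of their log2 CPM was 0.17 (permutation p = 0.488, adjusted p = 0.488 over 3 pairs) and Spearman's rho 0.32 (permutation p = 0.194, adjusted p = 0.222). Without high-dose water replicates 1 and 2, which lay farthest from the median of Th, r was 0.31 (permutation p = 0.236). As deviations from the group means (17 libraries), r was 0.26 (permutation p = 0.324, adjusted p = 0.485). The pairs with Dbh had r of -0.18 and -0.24 (Th and Ddc in that order; permutation p = 0.453 and 0.327, adjusted p = 0.488 for each), and rho of -0.35 and -0.30 (permutation p = 0.16 and 0.222, adjusted p = 0.222 for each). Without the 2 libraries farthest from the median, high-dose water replicates 1 and 2 for Th and high-dose ethanol replicates 1 and 2 for Ddc, r was -0.50 (permutation p = 0.0448) and -0.021 (permutation p = 0.939). As deviations from the group means, Ddc and Dbh had r of -0.51 (permutation p = 0.0341, adjusted p = 0.102), with Dbh at 9 counts or fewer in each library.

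Genes with the highest and the lowest mean of their Pearson correlations with Th, Ddc and Dbh were sought, although these 3 were not shown to vary together. The search covered 12255 genes of at least 1 CPM on average, over the 18 libraries. These libraries share scaling and depth, and the values are the extremes of many genes, so they are a description. ENSRNOG00000027286.5 had r of 0.46, 0.73 and 0.2 with the 3 enzymes in that order, and ENSRNOG00000017583.7 had 0.62, 0.57 and 0.15. The most opposite were ENSRNOG00000005248.6, with -0.58, -0.71 and -0.036, and ENSRNOG00000004300.5, with -0.58, -0.31 and -0.44. For Ddc alone, 95% of the genes lay between -0.71 and 0.72, and for Th alone between -0.62 and 0.65. For Dbh alone, which had 9 counts or fewer per library, 95% lay between -0.48 and 0.55. No names are paired with these identifiers.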

How the data were processed

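Messenger RNA libraries were made from total RNA of PC12 cells with a directional kit, per the labels' protocols. The deposited tables hold, per the file headers, the expected count, the TPM, the FPKM (not used here), and the gene length and effective length in bases as RSEM writes them. The submitters' processing notes name RSEM 1.3.3, and the names of the deposited tables add STAR. The aligner's version and settings, genome build, annotation and strand setting are not given in the sources used here. Expected counts are not normalized, and the authors' TPM values are corrected for effective length.

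The members and gene lists were chosen with earlier results of these data known. A RefSeq table of 47357 rat genes paired 0 of the 32883 Ensembl IDs with a symbol, so the pathway lists and cell type marker lists (cofactor synthesis, storage, release, breakdown, transcription factors, adrenal cortex, glia, fibroblast, endothelium) could not be applied and give no result. Genes were named by rule: the 3 members, and the 2 genes most and least like them.

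Expected counts were rounded and tested with edgeR 4.0.16 (quasi-likelihood F test, robust, TMM, default filter) in R 4.3.3, 1 coefficient per group over 21 libraries and 13550 genes, with Benjamini-Hochberg adjustment over all genes. CPM used TMM-scaled totals, log2 CPM a prior count of 2, and the SE is the change divided by the root of F. The scripts were tested on simulated data. Fragment length was taken from the gap between gene length and effective length (median, genes from 1000 bases up). Alternatives were DESeq2 1.42.0, limma-voom 3.58.1, DESeq2 size factors, other filters, effective length offsets, fragment length as a covariate, the replicate block, 18 libraries, only the groups compared, and leaving out libraries.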

Additional observations from a re-analysis of the deposited data

How the results depend on the processing

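Over 27 results, 530 alternative values were computed, of which 472 kept their direction and their side of the threshold, 12 lost a call, 15 gained one and 31 changed sign. The Ddc change at the high dose of ethanol extract kept its direction and its call in all 12 alternatives that did not leave out a single library (-0.51 to -0.47). Leaving out single libraries gave -0.55 to -0.46 (-0.56 to -0.46 from the 18), and 3 calls were lost, as given above. For Ddc between the extracts, averaged over doses, single libraries left out gave -0.27 to -0.19 (-0.28 to -0.22 from the 18), fragment length as a covariate -0.28 and a fit of only the groups compared -0.22, the last 2 without the call. For Ddc between the extracts at the high dose, calls were gained with 18 libraries (-0.36), 18 libraries with fragment length (-0.35) and only the groups compared (-0.35), and leaving out single libraries gave -0.42 to -0.32 with no call. Leaving them out of the 18 gave -0.41, -0.38, -0.35, -0.33, -0.33 and -0.32, all with the call. The log2 ratio of Ddc to Th between the extracts gained its call with 18 libraries (-0.34), which leave out the highest ethanol ratios. The cause was not tested.

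Changes of sign were in Th, apart from 2 in Ddc, and none of these values passed. With 18 libraries the Th changes were 0.018 (low-dose ethanol against vehicle), 0.10 (medium-dose ethanol against vehicle), 1.8e-05, 0.042 and 0.060 (ethanol against water at low dose, medium dose and averaged) and -0.035 (high against low ethanol). With fragment length as a covariate they were 0.073, 0.0041 and 0.014 (low-, medium- and high-dose ethanol against vehicle), 0.056 (ethanol against water at low dose), 0.056 (averaged) and -0.059 (high against low ethanol). With both they were 0.068, 0.11, 0.0013, 0.051, 0.062 (medium dose), 0.085 and -0.067. Leaving out single libraries gave Th ranges of -0.10 to 0.019 and -0.048 to 0.0034 (low- and high-dose ethanol) and -0.016 to 0.048 (low-dose water). They were -0.12 to 0.0011 (ethanol against water at low dose) and -0.038 to 0.083 (high against low ethanol). The medium-dose Th ranges held no change of sign, at -0.26 to -0.033 (ethanol against vehicle) and -0.32 to -0.090 (ethanol against water). The lowest value of each of these 2 passed, as given above. For Ddc the ranges with a change of sign were -0.011 to 0.097 (medium-dose water) and -0.12 to 0.0092 (high against low water). Depth limits Dbh, which has 84 counts in all.

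Libraries with the same number were not paired by the labels, and over 63 such pairs the deviations from the group means correlated at -0.17 to 0.25, with 11 over 0.1, and 9 of 21 libraries correlated best with their own number. With the replicate block and 21 libraries no member's call changed, and the Ddc change at the high dose of ethanol extract was -0.5 (edgeR adjusted p = 0.0014), with 523 genes passing in place of 531. With the replicate block and 18 libraries Ddc gained calls at low-dose ethanol (-0.26), between the extracts at the high dose (-0.36) and between high and low ethanol (-0.23), with edgeR adjusted p of 0.0029, 6.7e-05 and 0.0385. The Th values of changed sign under that block were 0.14 (medium-dose ethanol), 0.085 and 0.068 (ethanol against water, medium dose and averaged) and -0.012 (high against low ethanol).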

Other observations

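Ddc varied with the number of the library within the groups. The library numbered 3 had the highest Ddc CPM of its group in 7 of 7 groups, and it was the highest for Th in 5 of 7. How many of all genes do so was not counted, so this is not shown to be particular to Ddc. The mean deviation of the libraries numbered 3 from their group, in log2 CPM of Ddc, was 0.11, against -0.089 and -0.026 for those numbered 1 and 2. The labels do not say what a number marks, and what the numbers share was not tested.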
